A study of Mus musculus with 4 samples.

Results

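Nr4a1, Nr4a2, Nr4a3, Egr2, Egr3, Irf2bp2 and Nfatc1 are 7 genes of transcription factors and cofactors that are linked to antigen receptor signalling. They were taken by symbol, and all 7 were present among the 32285 genes measured in each of 4 single-cell RNA libraries of leukocytes from mouse melanomas. Each gene was read in cells that marker genes placed in a T cell, natural killer (NK) cell or myeloid class. Mice carried tumours of B16-F10, a transplantable mouse melanoma line, and every group received 1 agent into the tumour and 1 into a vein on days 8 and 11. The combination group received antibodies to CD40, through which helper signals reach dendritic cells, macrophages and B cells, and to PD1, a brake on T cells. The CD40 group received CD40 antibody and IgG, the PD1 group received dilution buffer and PD1 antibody, and the control group received dilution buffer and IgG. On day 14 the tumours were dissociated by mashing, with lysis of red blood cells at room temperature, and the cells of 6 mice were pooled in each group. After a block of CD16 and CD32, viable CD45+ cells were sorted and became 1 droplet-based 5′ library per group. The labels call the cell type melanoma, but the sort took leukocytes, and 1, 10, 10 and 6 cells of the combination, CD40, PD1 and control libraries carried pigment genes at 1% or more of their UMIs. The sources used here do not give the strain, sex or age of the mice. With 1 library per group there was no test of any difference, and the 95% intervals below cover counting error only. Since the mice of a group were pooled, the spread between mice is unknown.

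NR4A1, NR4A2 and NR4A3 are orphan nuclear receptors, and EGR2 and EGR3 are zinc finger factors. Their genes are switched on within an hour or so of antigen receptor signalling, through calcium, calcineurin and MAP kinase pathways, and the proteins restrain T cell activation and take part in anergy and exhaustion. NFATc1 is a factor that calcineurin sends into the nucleus, and its gene is itself induced through the receptor. IRF2BP2 is a corepressor that was found as a partner of IRF2 and can repress NFAT targets. The same genes also work outside lymphocytes. Nr4a1 is needed for non-classical monocytes, and Egr2 is used by monocytes and macrophages.

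Promoters of the 3 NR4A genes and Egr2 are shown because Nr4a2, Nr4a3 and Egr2 were found more often in CD8 T cells with a Nr4a1 UMI. This is described further on, with subsets of CD8 T cells pooled. Each window runs from 250 bases before to 50 bases after the gene's start, 5′ to 3′ on the gene's own strand (RefSeq, GRCm38.p6), and capitals mark 3 kinds of motif on either strand: the cyclic AMP response element (CRE) core TGACG, the EGR site GCGNGGGCG, and the CArG box, which is the site of serum response factor.
Nr4a1, chr15:101266596-101266895, plus strand: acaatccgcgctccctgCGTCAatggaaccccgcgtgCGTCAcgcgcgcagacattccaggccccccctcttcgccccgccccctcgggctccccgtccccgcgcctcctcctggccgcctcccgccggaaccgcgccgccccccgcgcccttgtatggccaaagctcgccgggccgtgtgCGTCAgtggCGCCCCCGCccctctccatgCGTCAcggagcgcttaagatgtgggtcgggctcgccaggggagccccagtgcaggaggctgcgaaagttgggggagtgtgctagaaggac
Nr4a2, chr2:57123954-57124253, minus strand: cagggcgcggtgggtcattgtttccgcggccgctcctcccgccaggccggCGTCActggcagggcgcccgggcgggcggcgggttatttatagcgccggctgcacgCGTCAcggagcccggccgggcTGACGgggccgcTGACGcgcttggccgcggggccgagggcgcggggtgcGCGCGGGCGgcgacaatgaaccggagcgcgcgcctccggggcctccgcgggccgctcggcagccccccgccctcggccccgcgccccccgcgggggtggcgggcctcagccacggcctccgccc
Nr4a3, chr4:48045055-48045354, plus strand: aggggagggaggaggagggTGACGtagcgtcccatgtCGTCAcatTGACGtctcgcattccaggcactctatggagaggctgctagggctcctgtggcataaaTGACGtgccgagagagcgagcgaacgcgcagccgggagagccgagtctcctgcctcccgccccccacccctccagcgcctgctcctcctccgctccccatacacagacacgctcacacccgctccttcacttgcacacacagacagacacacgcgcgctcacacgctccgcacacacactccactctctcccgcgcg
Egr2, chr10:67537619-67537918, plus strand: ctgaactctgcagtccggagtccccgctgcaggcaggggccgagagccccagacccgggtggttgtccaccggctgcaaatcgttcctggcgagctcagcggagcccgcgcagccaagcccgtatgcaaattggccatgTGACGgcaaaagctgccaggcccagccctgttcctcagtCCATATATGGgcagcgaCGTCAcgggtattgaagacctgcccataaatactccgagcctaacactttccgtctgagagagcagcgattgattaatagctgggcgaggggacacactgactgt

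The CRE core, part of the site bound by CREB family factors, was found 4 times in the Nr4a1 window, 4 times in the Nr4a2 window, 4 times in the Nr4a3 window, 2 times in the Egr2 window and 0 times in the Irf2bp2 window. Of all 32851 windows of this length in the RefSeq table, 20.8% held at least 1 CRE core. The EGR site occurred once each in the Nr4a1 and Nr4a2 windows, against 5.55% of all windows. A CArG box occurred in the Egr2 window, against 1.63% of all windows. The NFAT core GGAAA, not in capitals, occurred once each in the Nr4a2 and Egr2 windows, and 61.3% of all windows held it. The palindrome TGACGTCA occurred in none of the 5 member windows and in 1.79% of all windows. Egr2 has 5 windows in the table, and the one shown starts where the principal transcript starts in GENCODE. The start of the Nr4a3 window is 152 bases from that of the GENCODE principal transcript. A match of letters is a description and not evidence of binding.

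The genes lie on 7 chromosomes of the mouse genome (GRCm38, GENCODE M21). Nr4a1 (ENSMUSG00000023034) lies on the plus strand of chromosome 15 from 101254269 to 101274795, and Nr4a2 (ENSMUSG00000026826) on the minus strand of chromosome 2 from 57106830 to 57124003. Nr4a3 (ENSMUSG00000028341) lies on the plus strand of chromosome 4 from 48045153 to 48086447. Egr2 (ENSMUSG00000037868) lies on the plus strand of chromosome 10 from 67535475 to 67542188, and Egr3 (ENSMUSG00000033730) on the plus strand of chromosome 14 from 70077203 to 70082614. Irf2bp2 (ENSMUSG00000051495) lies on the minus strand of chromosome 8 from 126588296 to 126593986, and Nfatc1 (ENSMUSG00000033016) on the minus strand of chromosome 18 from 80606205 to 80713071.

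The libraries held 164755549 (combination), 156970611 (CD40), 149041709 (PD1) and 117735875 (control) unique molecular identifiers (UMIs), and 9438, 7747, 9684 and 7696 of their cells passed the filters. A UMI stands for 1 captured RNA molecule. Levels are given as CPM, the UMIs of a gene divided by the UMIs of all genes in the same cells and scaled so that all genes of the class sum to the same total in each library. The gates gave 2987, 1800, 1035 and 671 CD8 T cells in the order of the libraries just given, and 3787, 4153, 5752 and 3919 mononuclear phagocytes. Regulatory T (Treg) cells numbered 127, 93, 365 and 374, NK cells 487, 373, 648 and 479, and neutrophils 526, 262, 122 and 153. The CD8 T and phagocyte gates differed in genes outside the gates. The T cell kinase gene Lck, which no gate used, was at 496 to 624 CPM in CD8 T-gated cells against 2.10 to 2.91 CPM in phagocyte-gated cells, and Lyz2 was at 9454 to 11051 CPM in phagocyte-gated cells against 31.4 to 95.5 CPM in CD8 T-gated cells. Not every gene checked was particular to its class. The phagocyte gene Fcgr3 was at 610 to 1075 CPM in neutrophils against 499 to 720 CPM in phagocyte-gated cells. The NK cell gene Nkg7 was at 2057 to 3047 CPM in CD8 T-gated cells against 2447 to 3961 CPM in NK-gated cells. Between 305 and 371 barcodes per library also occurred in another library. Median depth per cell differed between libraries, for example in NK-gated cells (10998, 11200, 6205.5 and 5557 UMIs in the combination, CD40, PD1 and control libraries).

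Each gene had its own order of cell classes. Levels are compared here between classes for 1 gene at a time, as medians over libraries with at least 50 cells of the class. Nr4a1 was highest in Treg-gated cells, with a median of 219 CPM and a range over libraries of 162 to 232 CPM. Neutrophils followed at 127 CPM (91.3 to 176) and phagocytes at 75.0 CPM (53.2 to 91.8), and NK cells were lowest at 20.9 CPM (15.8 to 47.2). The ranges of these neighbours overlapped.

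Nr4a2 was highest in CD8 T-gated cells. Its median of 147 CPM in CD8 T-gated cells, with a range of 120.3 to 198 CPM, stood apart from all other classes, since T-gated cells without a clear coreceptor came next at 63.4 CPM (31.5 to 100.4). B cells had 1.61 CPM (1.45 to 4.51), and phagocytes 6.70 CPM (4.84 to 8.59). Nr4a3 was highest in dendritic cells, at 93.2 CPM in the PD1 library and 145 CPM in the control library, the only libraries with 50 such cells. Treg-gated cells followed with 67.5 CPM (52.6 to 86.3) and CD8 T-gated cells with 40.7 CPM (35.9 to 51.9), and the ranges of these 3 classes did not overlap.

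Egr2 was highest in phagocytes, with a median of 18.9 CPM (11.6 to 26.6), and conventional CD4 T cells followed at 14.8 CPM with a wide range (3.07 to 32.7) from 3 to 20 UMIs per library. Egr3 was low everywhere, and phagocytes were lowest with 1.33 CPM (1.13 to 1.502). The Irf2bp2 level was highest in myeloid cells, with medians of 204 CPM in phagocytes, 188 CPM in neutrophils and 184 CPM in dendritic cells, and CD8 T-gated cells were lowest at 53.6 CPM (42.5 to 60.9). The Nfatc1 level was highest in lymphocytes and neutrophils. Its medians lay between 127 and 157 CPM in conventional CD4 T, B, NK, CD8 T and Treg-gated cells, whose ranges overlapped, and neutrophils had 113 CPM (42.8 to 128), against 39.2 CPM in dendritic cells and 36.5 CPM in phagocytes (30.9 to 40.0).

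**Figure D1:**
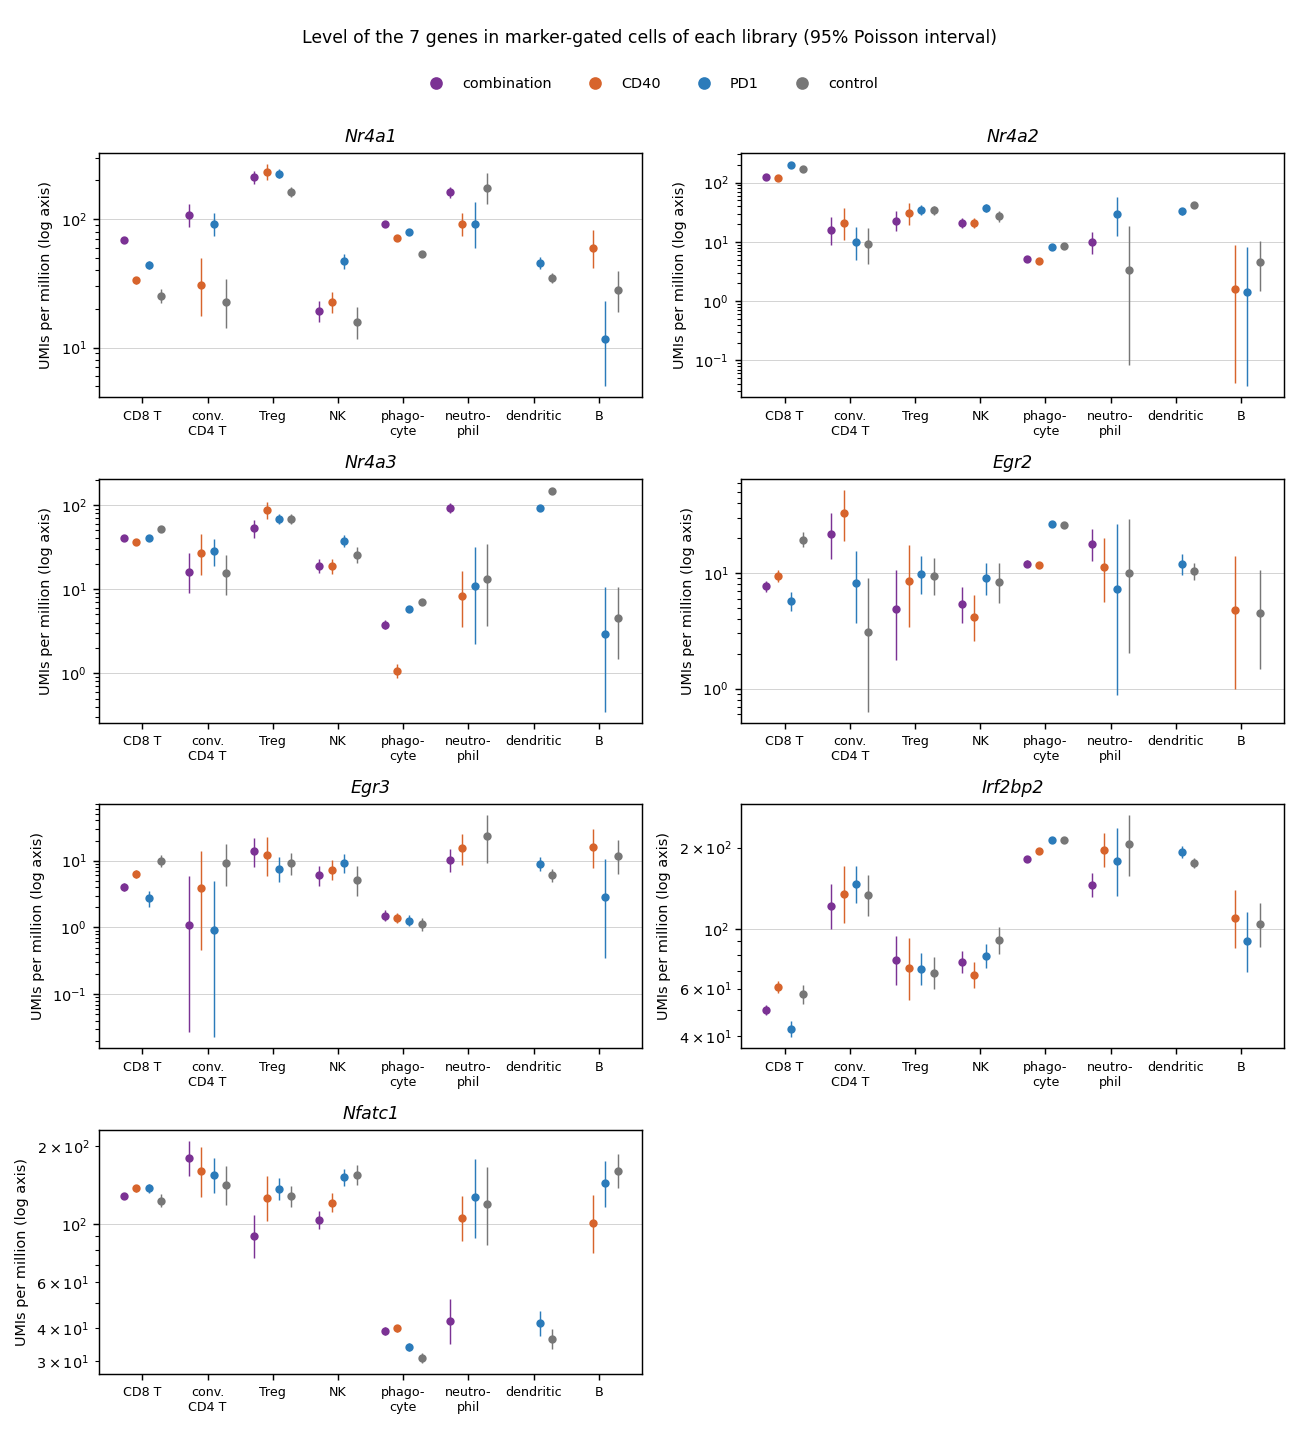
Each panel shows 1 gene, with its level in CPM on a log axis for each marker-gated class. Points are libraries with at least 50 cells of the class, in the order combination, CD40, PD1 and control, and bars are 95% Poisson intervals. Nr4a1 stands highest in Treg cells, Nr4a2 in CD8 T cells, Nr4a3 in dendritic cells and Irf2bp2 in myeloid cells.

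In CD8 T-gated cells, Nr4a1 was higher in each library with an antibody than in the control library, and highest with both. It was at 68.2 CPM in the combination library (3473 UMIs), 33.5 CPM in the CD40 library (959 UMIs), 44.1 CPM in the PD1 library (872 UMIs) and 25.1 CPM in the control library (250 UMIs). NR4A1 (Nur77) is the family member most used as a reporter of receptor signalling. On the log2 scale, the ratio of CD40 to control was 0.42 (95% interval 0.22 to 0.63) and that of combination to PD1 was 0.63 (0.52 to 0.74). The ratio of PD1 to control was 0.82 (0.61 to 1.02), and that of combination to CD40 was 1.02 (0.92 to 1.13). The intervals are too narrow, because the UMIs of a gene sit in few cells: the 10 cells with most Nr4a1 UMIs held 15.3%, 28.9%, 28.7% and 42.8% of them in the combination, CD40, PD1 and control libraries. The share of cells with a Nr4a1 UMI, after each cell was thinned to 2000 UMIs, was 7.48% (6.56 to 8.48), 4.13% (3.25 to 5.15), 5.32% (4.04 to 6.87) and 4.09% (2.71 to 5.90) in the same order, and 20.5%, 15.6%, 23.0% and 15.2% without thinning. In thinned B cells, with 42 to 222 cells a library, it was 1.52% to 5.56%. The CD40, PD1 and control shares in CD8 T-gated cells thus lie within the range of B cells.

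The second member of the family, Nr4a2, was lower with CD40 antibody. Its level was 125 CPM in the combination library, 120.3 CPM in the CD40 library, 198 CPM in the PD1 library and 170.0 CPM in the control library, so both libraries with CD40 antibody lay below both without. The log2 ratio was -0.50 (-0.58 to -0.41) for CD40 against control and -0.67 (-0.73 to -0.61) for combination against PD1. The ratio of PD1 to control was 0.22 (0.14 to 0.30). A Nr4a2 UMI was found in 12.7%, 14.3%, 23.9% and 18.6% of thinned CD8 T-gated cells in the combination, CD40, PD1 and control libraries, against at most 0.758% of thinned B cells. Nr4a3 differed less, with 40.9, 35.9, 40.5 and 51.9 CPM in that order. Its ratio was -0.53 (-0.69 to -0.38) for CD40 against control and 0.02 (-0.10 to 0.14) for combination against PD1.

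Egr2 and Egr3 were highest in the control library. Egr2 was at 7.64 CPM in the combination library, 9.44 CPM in the CD40 library, 5.67 CPM in the PD1 library and 19.5 CPM in the control library, from 389, 270, 112 and 194 UMIs. Few cells carry these values, since the top 10 cells held 33.2%, 43.7%, 40.2% and 41.2% of the Egr2 UMIs in the same order. In the control library, cells with no UMI of Havcr2 or Tcf7 held 31.4% of the Egr2 UMIs and 15.5% of all UMIs. The log2 ratio of Egr2 was -1.04 (-1.31 to -0.77) for CD40 against control and -1.78 (-2.13 to -1.44) for PD1 against control. For combination against PD1 it was 0.43 (0.12 to 0.75). Thus CD40 antibody went with a lower level beside IgG and a slightly higher one beside PD1 antibody. The second direction did not hold when the Havcr2 and Tcf7 subsets described below were weighted as in the control library. Egr2 was then at 7.32, 8.65, 7.65 and 19.5 CPM in the combination, CD40, PD1 and control libraries. Egr3 followed the unweighted order of Egr2 with 4.09, 6.33, 2.73 and 9.83 CPM. Of its 98 UMIs in the control library, 63.3% lay in 10 cells. Irf2bp2 was at 50.03, 60.9, 42.5 and 57.3 CPM. Nfatc1 hardly differed at 128, 137, 138 and 123 CPM, with ratios of 0.16 (0.06 to 0.25) for CD40 against control and -0.10 (-0.17 to -0.04) for combination against PD1.

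Of all genes with at least 10 UMIs over the pair of libraries, 9.27% had a log2 ratio of at least 1 in size for CD40 against control in CD8 T-gated cells, and 1 of the 7 genes did (Egr2, lower). For combination against PD1 the share was 9.23%, and 0 of the 7 genes were past 1. For PD1 against control it was 7.34%, with Egr2 and Egr3 lower, and for combination against CD40 it was 5.53%, with Nr4a1 higher. The median log2 ratio of the 7 genes was -0.50, 0.23, -0.36 and -0.10 in these 4 comparisons in turn, beside medians of -0.03 to 0.02 over all genes.

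**Figure D2:**
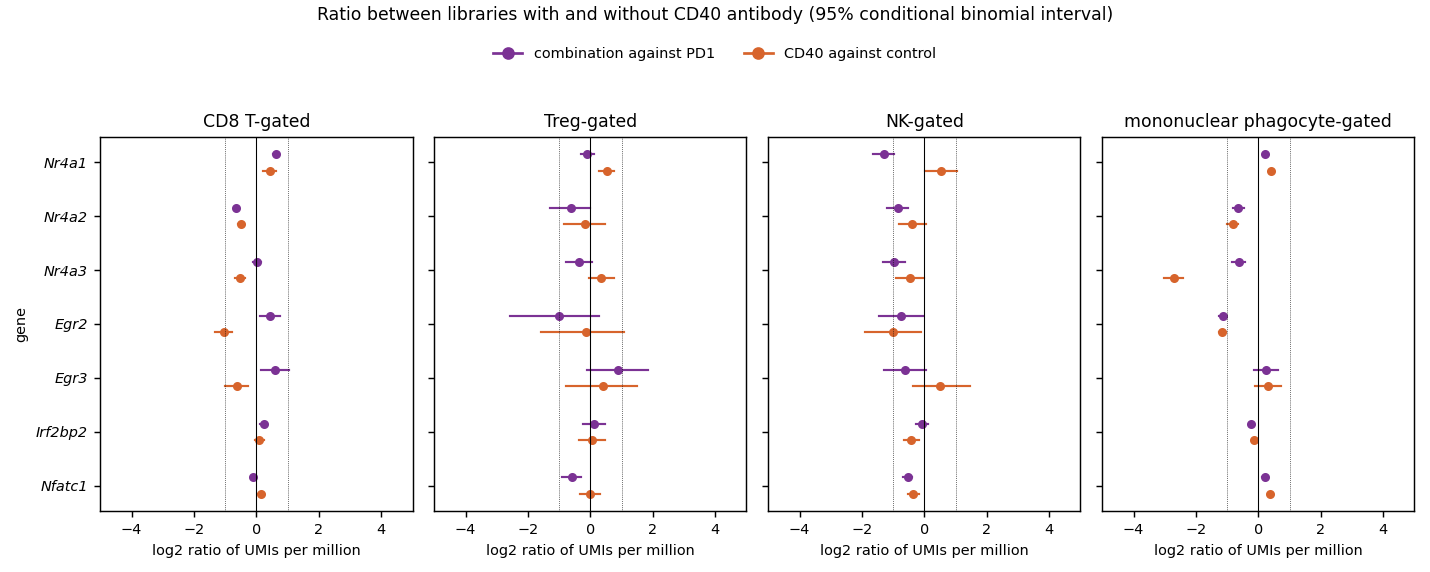
Log2 ratios of CPM for the 7 genes in 1 panel per class, combination against PD1 and CD40 against control, with 95% conditional binomial intervals and dotted lines at a size of 1. Egr2 in phagocytes is near -1.1 in both comparisons, Nr4a2 is below 0 in both in CD8 T, NK and phagocyte-gated cells, and Egr2 in CD8 T cells is on opposite sides of 0.

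The CD8 T-gated cells were split by Havcr2, the gene of the exhaustion receptor TIM-3, and by Tcf7, the gene of TCF1, which marks naive and stem-like cells. Cells with a Havcr2 UMI numbered 1702, 1061, 702 and 293 in the combination, CD40, PD1 and control libraries, and cells with Tcf7 and without Havcr2 numbered 461, 252, 205 and 235. The order of the libraries seen for Nr4a1 was also that in Havcr2 cells. There Nr4a1 was at 86.2 CPM in the combination library, 38.7 CPM in the CD40 library, 43.2 CPM in the PD1 library and 22.9 CPM in the control library. Its log2 ratio was 1.00 (0.88 to 1.12) for combination against PD1 and 0.76 (0.50 to 1.02) for CD40 against control. Because a deeper cell more often shows a UMI of a marker, the split was repeated in cells of at least 5000 UMIs thinned to 5000, which gave 109, 47.4, 49.3 and 25.9 CPM. The order of the libraries was therefore the same in both readings.

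Egr1, an immediate early gene of the EGR family that is not among the 7 and was looked at after its values were seen, was also highest in the combination library and lowest in the control library in Havcr2 cells, with 83.9, 52.6, 43.1 and 30.3 CPM in the combination, CD40, PD1 and control libraries. Nr4a2 in Havcr2 cells was at 163, 152, 221 and 212 CPM, again lower in both libraries with CD40 antibody, with 206, 161, 235 and 218 CPM in the thinned reading. Egr2 in Havcr2 cells was at 9.67, 11.7, 3.95 and 15.5 CPM, and its lowest value was that of the PD1 library. Past a size of 1 were 0 of the 7 genes for CD40 against control, where 8.37% of all genes were. Egr2 and Egr3 were higher past 1 for combination against PD1, where 9.22% of all genes were past 1 in either direction.

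The Tcf7 cells without Havcr2 gave another picture, in which 4 of the 7 genes were lower past a size of 1 with CD40 antibody in both comparisons. Nr4a2 was at 20.2 CPM in the combination library, 21.1 CPM in the CD40 library, 82.1 CPM in the PD1 library and 66.4 CPM in the control library. Its log2 ratio was -1.65 (-2.11 to -1.20) for CD40 against control and -2.02 (-2.38 to -1.67) for combination against PD1. Nr4a3 was at 8.44, 6.70, 31.3 and 29.6 CPM in the same order, and Egr2 at 4.04, 2.11, 14.9 and 16.7 CPM from 22, 6, 30 and 35 UMIs. Egr3 had 2, 7, 14 and 29 UMIs, of which 18 of the 29 in the control library lay in 1 cell. In this subset 11.2% of all genes were past a size of 1 for CD40 against control, and 11.0% for combination against PD1, with 4 of the 7 genes lower past 1 in each: Nr4a2, Nr4a3, Egr2 and Egr3. Lower past 1 were 4.78% and 6.47% of all genes in turn. The Egr3 ratio of combination to PD1 is a bound. Among genes with at least 50 UMIs, 2 of the 5 members tested were lower past 1 for CD40 against control. For combination against PD1 it was 3 of 6.

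These values rest on few cells. In the thinned reading, Nr4a2 was at 20.7, 18.8, 63.8 and 56.0 CPM in the combination, CD40, PD1 and control libraries and Egr2 at 5.45, 1.97, 10.8 and 10.3 CPM, so both genes were again lower in both libraries with CD40 antibody. The Egr2 ratio of combination to PD1 was then just inside a size of 1. Nr4a3 was at 7.73, 6.91, 23.6 and 12.2 CPM in that reading, a smaller difference between CD40 and control that was inside a size of 1. Nr4a1 in this subset was at 24.6, 21.5, 47.3 and 34.9 CPM as read in all UMIs, and at 29.1, 25.2, 53.0 and 15.5 CPM in the thinned reading. Its direction for CD40 against control therefore turned, and 37 of the 73 UMIs of the control library lay in 1 cell. The share of these cells with a Nr4a2 UMI at 5000 UMIs was 8.27% (5.83 to 11.3), 7.66% (4.52 to 12.0), 15.6% (10.7 to 21.8) and 10.1% (6.16 to 15.3), and the intervals of CD40 and control overlapped. Other genes moved with the libraries in this subset: the proliferation gene Mki67 was at 186, 179, 43.8 and 59.2 CPM, and Ccr7, a lymph node homing receptor, was at 102, 89.2, 184 and 180 CPM. The part of these differences in the members' levels was not tested.

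**Figure D3:**
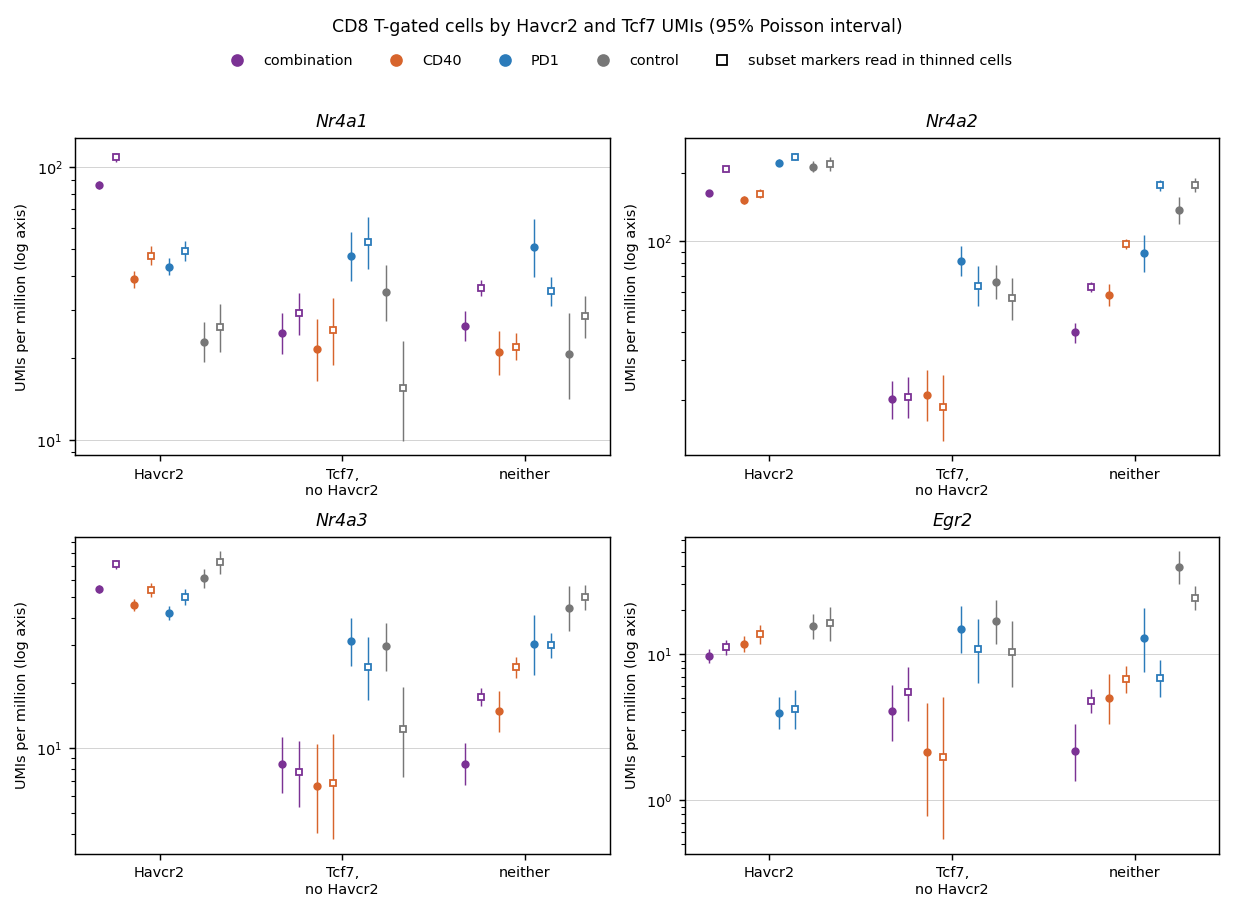
Levels of the NR4A and EGR genes in subsets of CD8 T-gated cells, in CPM on a log axis with 95% Poisson intervals. Filled points read the subset markers in all UMIs and open squares in cells thinned to 5000 UMIs, and each subset lists the libraries in the order combination, CD40, PD1 and control. Nr4a1 in Havcr2 cells is highest in the combination library, and Nr4a2 in Tcf7 cells without Havcr2 is lower in both libraries with CD40 antibody.

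In single CD8 T cells the NR4A and EGR genes were detected together. Cells of at least 5000 UMIs were thinned to 5000, so that depth was the same for all. A Nr4a2 UMI was found in 55.8% of the 353 cells with a Nr4a1 UMI and 16.9% of the 2474 cells without in the combination library. The same pair was 54.1% of 148 and 22.9% of 1561 in the CD40 library, 64.0% of 111 and 39.1% of 862 in the PD1 library, and 61.9% of 42 and 32.6% of 531 in the control library. Nr4a3 was found in 37.4%, 28.4%, 37.8% and 33.3% of cells with a Nr4a1 UMI, in the order combination, CD40, PD1 and control, against 5.54%, 5.25%, 8.47% and 12.4% of cells without. In the same order, Egr2 was found in 11.6%, 13.5%, 9.01% and 11.9% of cells with a Nr4a1 UMI, against 1.13%, 1.92%, 1.62% and 4.90% of cells without. Egr3 was found in 7.65%, 8.78%, 4.50% and 7.14% against 0.485%, 0.961%, 0.928% and 2.64%. Each of these 4 genes was thus found more often in cells with a Nr4a1 UMI than in cells without, in all 4 libraries. The control shares rest on 42 cells with a Nr4a1 UMI. All these shares pool the subsets split by Havcr2 and Tcf7, which differ in these genes. In the combination library Havcr2 cells held 88.8% of the Nr4a1 UMIs and 92.2% of the Nr4a2 UMIs, against 70.3% of all UMIs. In the PD1 library they held 81.4% and 92.8%, against 83.2%. Shares within each subset are not given here.

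Irf2bp2 was different. It was found in 16.7%, 23.6%, 15.3% and 31.0% of cells with a Nr4a1 UMI, in the same order of libraries, against 23.4%, 25.8%, 17.2% and 24.7% of cells without. Only in the control library was the share higher with Nr4a1 than without. Nfatc1 was found in 49.6%, 58.8%, 59.5% and 64.3% of cells with a Nr4a1 UMI against 42.1%, 47.7%, 43.7% and 41.1% without, so it too was found more often with Nr4a1 in all 4 libraries. Over all phagocyte-gated cells, Egr2 showed no such tie to Nr4a1. It was found in 4.07%, 3.53%, 11.9% and 9.31% of phagocytes with a Nr4a1 UMI, against 4.06%, 5.12%, 10.2% and 10.1% of those without. These shares pool kinds of phagocyte, described below, that differ in both genes. Non-classical monocytes held 57.2% to 78.8% of the Nr4a1 UMIs of phagocytes over the libraries. Their median Egr2 level was 12.5 CPM, against 28.6 CPM in classical monocytes. Shares within each kind are not given here, and the pooled shares cannot stand in for them.

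**Figure D4:**
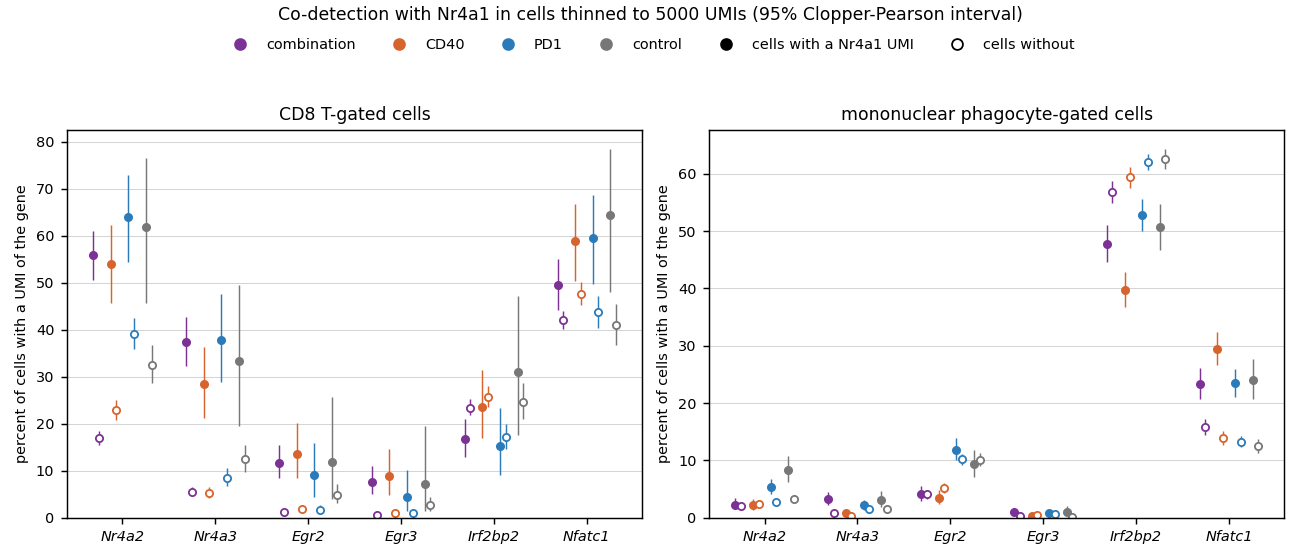
Percent of cells with a UMI of each other gene among cells with (filled) and without (open) a Nr4a1 UMI, in cells thinned to 5000 UMIs, by library and with 95% Clopper-Pearson intervals. Over all CD8 T-gated cells, with their subsets pooled, the filled points of Nr4a2, Nr4a3, Egr2 and Egr3 stand above the open ones in all 4 libraries. Over all phagocyte-gated cells, with their kinds pooled, those of Egr2 do not.

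Egr2 in phagocyte-gated cells was lower in both libraries with CD40 antibody. It was at 12.1 CPM in the combination library (948 UMIs), 11.6 CPM in the CD40 library (1187 UMIs), 26.6 CPM in the PD1 library (2460 UMIs) and 25.8 CPM in the control library (1850 UMIs). EGR2 is a factor of monocyte and macrophage differentiation. The log2 ratio was -1.15 (-1.26 to -1.05) for CD40 against control and -1.14 (-1.25 to -1.03) for combination against PD1, while that of PD1 against control was 0.04 (-0.04 to 0.13). The share of phagocytes with an Egr2 UMI at 2000 UMIs was 2.07% (1.64 to 2.58), 2.01% (1.60 to 2.48), 4.64% (4.11 to 5.22) and 4.57% (3.93 to 5.27) in the combination, CD40, PD1 and control libraries. Without thinning the shares were 11.4%, 13.6%, 19.3% and 22.0%.

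The Egr2 difference was present in each of 4 kinds of phagocyte. In non-classical monocytes (cells with Ace, Treml4 or Adgre4) Egr2 was at 9.55 CPM in the combination library, 6.92 CPM in the CD40 library, 15.5 CPM in the PD1 library and 22.9 CPM in the control library. In classical monocytes (cells with Ly6c2 or Ccr2) it was at 15.7, 20.4, 36.9 and 40.1 CPM in the same order. In macrophages with complement C1q genes it was at 10.2, 10.2, 22.4 and 18.4 CPM. The remaining phagocytes had 13.2, 9.49, 23.4 and 19.7 CPM. Both libraries with CD40 antibody were the lower ones in each kind. The thinned reading kept this, with 15.8, 20.1, 37.4 and 40.1 CPM in classical monocytes and 10.1, 7.24, 18.0 and 25.9 CPM in non-classical monocytes.

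Nr4a1 in phagocytes was mostly a transcript of non-classical monocytes. These cells held 72.3%, 78.8%, 61.7% and 57.2% of the Nr4a1 UMIs of phagocyte-gated cells in the combination, CD40, PD1 and control libraries, against 24.5%, 22.6%, 15.03% and 8.08% of all their UMIs. NR4A1 is the factor on which this monocyte subset depends in mice. Over all phagocytes Nr4a1 was at 91.8 CPM in the combination library, 71.1 CPM in the CD40 library, 79.0 CPM in the PD1 library and 53.2 CPM in the control library, a log2 ratio of 0.42 (0.36 to 0.47) for CD40 against control. With the subsets weighted as in the control library the levels were 47.5, 40.5, 55.5 and 53.2 CPM, so the direction for both libraries with CD40 antibody turned.

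Within non-classical monocytes Nr4a1 was at 271 CPM in the combination library, 248 CPM in the CD40 library, 324 CPM in the PD1 library and 377 CPM in the control library. When the markers were read in thinned cells it was at 267, 247, 271 and 273 CPM, so the libraries differed less in that reading. That reading took 1238, 1422 and 642 such cells in the combination, PD1 and control libraries, against 1227, 1226 and 530 in all UMIs. Thinning removes UMIs and cannot add cells at the same cut, so the cut differed as well as the depth. Their parts in the smaller difference cannot be told apart. Classical monocytes had 57.0, 51.9, 63.0 and 50.3 CPM, and C1q macrophages 8.78, 5.69, 12.6 and 8.85 CPM. The gap between the 3 kinds of cell was thus far wider than that between libraries.

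**Figure D5:**
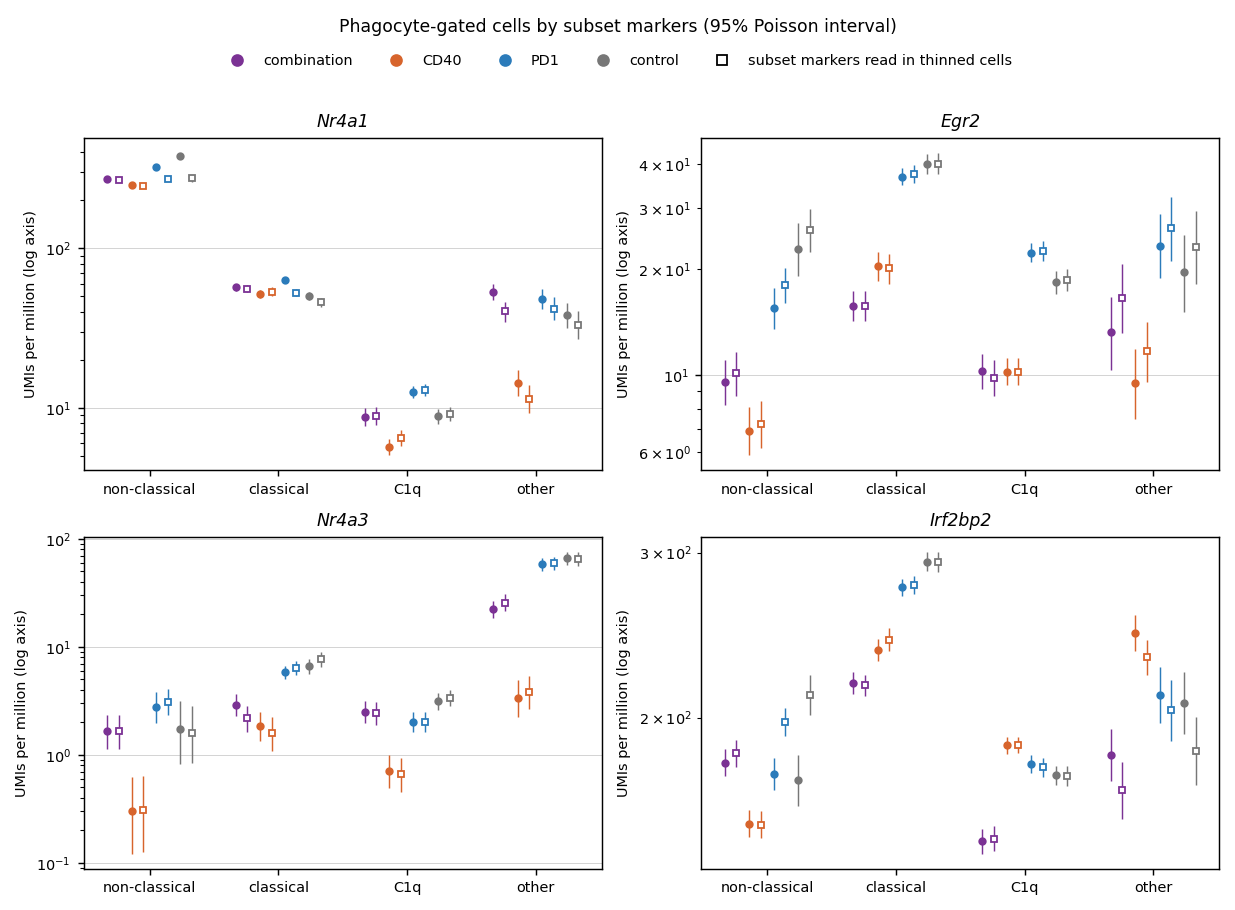
Levels of members in 4 kinds of phagocyte-gated cell, in CPM on a log axis with 95% Poisson intervals, in the order combination, CD40, PD1 and control. Filled points read the subset markers in all UMIs and open squares in cells thinned to 5000 UMIs. Nr4a1 is highest in non-classical monocytes in every library, and Egr2 is lower in both libraries with CD40 antibody in each kind of cell.

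Nr4a3 and Nr4a2 were low in phagocytes and also lower with CD40 antibody. Nr4a3 was at 3.79 CPM in the combination library, 1.08 CPM in the CD40 library, 5.85 CPM in the PD1 library and 7.02 CPM in the control library. Its log2 ratio was -2.71 (-3.02 to -2.41) for CD40 against control and -0.63 (-0.83 to -0.42) for combination against PD1. Phagocytes outside the 3 named kinds, at 4.20% to 7.84% of the UMIs, held 24.5% to 42.9% of the Nr4a3 UMIs, with 22.3, 3.37, 57.9 and 66.4 CPM in the combination, CD40, PD1 and control libraries. Dendritic cell genes moved with it: the 7 dendritic markers summed to 12.1, 6.94, 32.8 and 25.8 CPM in phagocyte-gated cells, and Ccr7, a gene of mature dendritic cells, was at 23.1, 2.37, 151 and 92.2 CPM in the remaining phagocytes. Their part in the Nr4a3 levels was not tested. Nr4a2 was at 5.23, 4.84, 8.18 and 8.59 CPM over all phagocytes.

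Irf2bp2 was at 181, 195, 214 and 214 CPM in phagocytes of the combination, CD40, PD1 and control libraries. In classical monocytes it was at 218, 236, 276 and 293 CPM, but not every kind had this order. In the thinned reading C1q macrophages were at 149, 187, 177 and 173 CPM and the remaining phagocytes at 167, 232, 204 and 184 CPM. Both were highest in the CD40 library. Non-classical monocytes were at 183, 154, 198 and 211 CPM in that reading, and at 154 to 179 CPM over the libraries in all UMIs. Nfatc1 was at 39.1, 40.0, 34.0 and 30.9 CPM, and in the remaining phagocytes at 57.5, 119, 31.6 and 23.7 CPM, highest in the CD40 library, where 52.1% of the 951 UMIs lay in 10 cells and 128 in 1 cell. Egr3 was at 1.13 to 1.502 CPM in every library. In phagocyte-gated cells 9.62% of all genes were past a size of 1 for CD40 against control, and 2 of the 7 genes were (Egr2 and Nr4a3, lower). For combination against PD1 the shares were 9.04% of all genes and 1 of 7 (Egr2, lower), for PD1 against control 7.44% and 0 of 7, and for combination against CD40 7.97% and 1 of 7 (Nr4a3, higher). The median of the 7 genes was -0.13, -0.25, 0.04 and 0.11 in these 4 comparisons in turn, beside -0.07 to 0.01 over all genes.

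By kind of monocyte, 4 of the 7 genes were lower past 1 in non-classical cells for CD40 against control (Egr2, Egr3, Nr4a2 and Nr4a3), where 10.1% of all genes were past 1. Egr3 rested on 12 UMIs in the CD40 library and 9 in the control library, and Nr4a3 on 7 and 10. In the thinned reading Egr3 was at 0.933 CPM in the CD40 library and 1.61 CPM in the control library, inside a size of 1. Among genes with at least 50 UMIs, 2 of the 5 members tested were lower past 1. For combination against PD1 it was 8.28% and Egr3 alone, higher on 25 UMIs in the combination library against 6 in the PD1 library. In classical monocytes Nr4a3 was lower and Egr3 higher for CD40 against control, where the share of all genes was 7.54%, and Egr2 was lower for combination against PD1, where it was 8.32%.

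Treg-gated cells, whose Nr4a1 level was the highest of all classes, had 211 CPM in the combination library, 232 CPM in the CD40 library, 227 CPM in the PD1 library and 162 CPM in the control library. Each library with an antibody was above the control library, with a log2 ratio of 0.51 (0.27 to 0.76) for CD40 against control and 0.48 (0.32 to 0.65) for PD1 against control. Combination against PD1 was -0.10 (-0.31 to 0.11). Few cells carry these values, since the top 10 cells held 76.2%, 84.8%, 46.8% and 49.6% of the Nr4a1 UMIs in the combination, CD40, PD1 and control libraries, and 1 cell of the CD40 library held 27.7%. Nr4a3 was at 52.6, 86.3, 67.6 and 67.5 CPM in the combination, CD40, PD1 and control libraries, and Nfatc1 at 90.6, 126, 137 and 128 CPM. The ratio of combination to PD1 for Nfatc1 was -0.59 (-0.91 to -0.29). In these cells 0 of the 7 genes were past 1 for CD40 against control, where 7.89% of all genes were. For combination against PD1 1 gene was (Egr2, lower, 6 UMIs against 30), where 9.03% of all genes were.

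In conventional CD4 T cells (87, 60, 166 and 171 cells in the combination, CD40, PD1 and control libraries) Nr4a1 was high with PD1 antibody. It was at 108 CPM in the combination library, 30.8 CPM in the CD40 library, 91.3 CPM in the PD1 library and 22.5 CPM in the control library, from 100, 16, 101 and 22 UMIs. The log2 ratio was 2.02 (1.35 to 2.76) for PD1 against control and 1.80 (1.03 to 2.67) for combination against CD40. In these cells Egr2 was higher in both libraries with CD40 antibody, with 20, 17, 9 and 3 UMIs in the same order.

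In NK-gated cells the 3 NR4A genes were highest in the PD1 library. Nr4a1 was at 19.1 CPM in the combination library, 22.6 CPM in the CD40 library, 47.2 CPM in the PD1 library and 15.8 CPM in the control library. The PD1 library alone was high, with a log2 ratio of 1.58 (1.13 to 2.06) against control, and combination against PD1 was -1.30 (-1.64 to -0.97). Nr4a2 was at 20.9, 20.9, 37.8 and 27.3 CPM, and Nr4a3 at 19.0, 18.6, 37.3 and 25.7 CPM, with the PD1 library again the highest. These counts sit in few cells, since the top 10 cells held 60.0% of the 215 Nr4a1 UMIs of the PD1 library. After thinning to 2000 UMIs a Nr4a1 UMI was found in 1.24% (0.456 to 2.68), 2.95% (1.48 to 5.22), 3.74% (2.41 to 5.52) and 1.69% (0.735 to 3.31) of NK-gated cells. These shares are within or below the range of B cells, which also carried Nr4a1. Nfatc1 was at 104, 121, 152 and 155 CPM, lower in both libraries with CD40 antibody. In NK-gated cells 14.4% of all genes were past 1 for CD40 against control and 0 of the 7 were. For combination against PD1 it was 11.2% and Nr4a1 alone (lower), and for PD1 against control 4.49% and Nr4a1 alone (higher). Mki67 was at 223, 260, 31.8 and 26.7 CPM in NK-gated cells in the order of the libraries, and its part in these levels was not tested.

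In neutrophils Nr4a3 was high in the combination library alone. It was at 92.5 CPM there (225 UMIs), 8.23 CPM in the CD40 library (8 UMIs), 11.0 CPM in the PD1 library (3 UMIs) and 13.3 CPM in the control library (4 UMIs). The log2 ratio was 3.49 (2.49 to 4.72) for combination against CD40 and 3.08 (1.51 to 5.37) for combination against PD1, where the median of all genes was -0.60. Relative to the median of all genes these ratios were 3.97 and 3.67. The gene of interleukin 1 alpha, Il1a, moved with it, at 1190.4, 26.7, 25.6 and 3.31 CPM in the combination, CD40, PD1 and control libraries. In the combination library Nr4a3 was at 181 CPM in the 182 neutrophils with an Il1a UMI. In neutrophils without one it was at 31.9 CPM in the combination library, 4.25 CPM in the CD40 library, 7.79 CPM in the PD1 library and 13.4 CPM in the control library. Nr4a1 in neutrophils was at 162, 91.5, 91.3 and 176 CPM, and Nfatc1 at 42.8, 106, 128 and 119 CPM, lowest in the combination library. Of all genes 15.9% were past 1 for CD40 against control, with 0 of the 6 members that had at least 10 UMIs. For combination against PD1 it was 27.7%, with Nr4a3 higher and Nr4a2 and Nfatc1 lower. Of all genes in that comparison 4.05% were higher and 23.6% lower past 1. Nr4a2 rested on 24 UMIs in the combination library, with 91.7% of them in 10 cells. Relative to the median of all genes, Nr4a2 and Nfatc1 were at -0.97 and -0.98 in that comparison and so no longer past 1. Neutrophils were the shallowest class, with a median of 4122.5, 3245.5, 2073.5 and 1830 UMIs per cell in the order of the libraries. Their 3 gate markers summed to 5400, 9388, 9253 and 9290 CPM in that order. In the largest Leiden cluster named for neutrophils, 475 of 1616 cells were gated neutrophils and 803 stayed ungated. The part of the gate in the members' levels was not tested.

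Other genes of the pathway were read from 7 lists, some of which share genes, such as Lag3, Tnfrsf9, Fos and Jun. Of 29 other immediate early and receptor-induced genes, 28 were measured in CD8 T-gated cells. For CD40 against control 0 were higher and 1 was lower past 1, with a median of -0.06 beside -0.02 over all genes, of which 3.21% were higher and 6.06% lower past 1. The gene was Cd83, at 1.14 CPM in the combination library, 1.96 CPM in the CD40 library, 10.3 CPM in the PD1 library and 26.8 CPM in the control library. For combination against PD1 0 were higher and 2 lower (Cd83 and Spry1), with a median of 0.13 beside 0.02 over all genes, of which 3.97% were higher and 5.26% lower past 1. The 16 measured genes of the calcineurin and NFAT pathway had 0 past 1 in CD8 T-gated cells in both comparisons, with medians of -0.03 and 0.12. The 9 partners of EGR and NR4A factors, which include the NAB corepressors and RXR receptors, also had 0 past 1 in both, with a median of 0.11 in each.

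The list of anergy genes that EGR2 and EGR3 are linked to had 12 measured genes in CD8 T-gated cells, of which 0 were higher and 2 lower past 1 for CD40 against control, Nrgn and Crtam. Nrgn, the gene of a calmodulin-binding protein, was at 134, 186, 443 and 703 CPM in the combination, CD40, PD1 and control libraries. Of 10 cytokine and chemokine genes induced by the receptor, 1 was higher and 4 lower past 1 for CD40 against control. Ccl1, a chemokine gene, was at 11.6, 26.0, 94.0 and 367 CPM, and Ifng, the gene of interferon gamma, at 525, 540.2, 638 and 263 CPM. Of 10 inhibitory receptor and exhaustion genes 1 was higher (Tox2) and 0 lower. Over all genes 3.21% were higher and 6.06% lower past 1 for CD40 against control in CD8 T-gated cells.

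In NK-gated cells 5 of 9 measured cytokine genes were higher past 1 and 0 lower for PD1 against control, the comparison in which Nr4a1 was also higher, with a median of 1.02 beside -0.02 over all genes, of which 1.71% were higher and 2.77% lower past 1. Ccl4, a chemokine gene, was at 773, 429.5, 703 and 276 CPM in the combination, CD40, PD1 and control libraries. Of 9 measured inhibitory receptor genes, 4 were higher and 1 lower past 1 for CD40 against control in NK-gated cells, with a median of 0.98 beside -0.07 over all genes, of which 6.37% were higher and 7.98% lower past 1. The same counts held for combination against PD1, with a median of 0.58 beside -0.07 over all genes, of which 5.70% were higher and 5.55% lower past 1. The calcineurin and NFAT genes had 15 of 16 lower for combination against PD1 in NK-gated cells, though 0 were past 1, with a median of -0.26 beside -0.07.

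In phagocytes the other immediate early genes had 1 higher and 1 lower past 1 of 28 for CD40 against control, and 0 and 2 for combination against PD1, with medians of -0.01 and -0.02 beside -0.02 and 0.01 over all genes. Of all genes 4.95% were higher and 4.68% lower past 1 in the CD40 comparison with control, and 5.04% and 4.01% in that of combination with PD1. Fos, an immediate early gene, was at 163, 121, 137 and 112 CPM in phagocytes of the combination, CD40, PD1 and control libraries. Among genes known to respond to tissue dissociation, Hspa1a, a heat shock gene, was at 10.1, 39.6, 43.9 and 12.1 CPM in CD8 T-gated cells and at 27.4, 90.9, 88.7 and 90.8 CPM in phagocytes. Of 12 such genes in CD8 T-gated cells, 2 were higher and 1 lower past 1 for CD40 against control, beside 3.21% and 6.06% of all genes, and 0 and 2 for combination against PD1, beside 3.97% and 5.26%. In phagocytes it was 0 and 0 for CD40 against control, beside 4.95% and 4.68% of all genes, and 0 and 2 for combination against PD1, beside 5.04% and 4.01%. Immediate early genes can be induced while tissue is handled, and the part of handling in the members' levels was not tested.

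The genes whose profiles were most like each member were found over 25 profiles of 8 classes in 4 libraries, by Pearson's r of log2(CPM + 5). The profiles share libraries and depth, so r is a description. For Nr4a1 they were Tnfrsf1b (r = 0.854), P4ha1 (0.842) and Phlda1 (0.832). For Nr4a2 they were Filip1 (0.849), Serpine2 (0.831) and Tyms (0.815), and for Nr4a3 Ly75 (0.841), Traf1 (0.803) and Mir155hg (0.782). For Egr2 they were Pgam1 (0.727), Itpripl2 (0.716) and Rbpj (0.710), and for Egr3 Safb (0.667), Scaper (0.657) and Tspan13 (0.625). For Irf2bp2 they were Zfp710 (0.929), Plekhf2 (0.925) and Bach1 (0.904), and for Nfatc1 Sp4 (0.932), Lrif1 (0.927) and Arhgef1 (0.926). Among the members themselves, Nr4a2 and Nr4a3 had r = 0.640, and Nr4a2 and Irf2bp2 had r = -0.706.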

How the data were processed

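RNA of live CD45+ cells was measured in 4 libraries by 5′ droplet single-cell sequencing, 1 library per group of 6 pooled mice. The authors deposited raw UMI counts per gene and barcode, per the file headers, with no normalization. They used Cell Ranger 7.0.0 and GRCm38, per the submitters' processing notes. Not given in the sources used here are the annotation release, the way cells were called and the treatment of introns, which would add most to long genes such as Nfatc1.

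Kept cells had 300 genes or more and no more than 10% mitochondrial UMIs, and cells with a Scrublet score of at least 0.25 (scanpy 1.11.5) were left out as predicted doublets (282, 159, 254 and 151 in the combination, CD40, PD1 and control libraries). A cell joined a class with at least 3 marker UMIs and at least 80% of its lineage marker UMIs in that class, and 985, 593, 568 and 583 cells stayed ungated. CD8 T cells needed a Cd8a or Cd8b1 UMI without Cd4 or Foxp3, and Treg cells a Foxp3 UMI. Non-classical and classical monocytes needed 3 marker UMIs, and C1q macrophages 2000 CPM of C1q genes. These are the cuts of the reading in all UMIs. The reading in thinned cells took more non-classical monocytes in the combination, PD1 and control libraries, so its cut was not the same. UMIs were summed per class and library. Levels have exact Poisson, shares Clopper-Pearson and ratios conditional binomial 95% intervals. Counts of 0 to 2 entered ratios as 3, which makes the ratio a bound. With 1 library per group nothing was tested, and a log2 ratio of at least 1 in size is a rule of size only. Ratios needed 50 cells and, over all genes, 10 UMIs. The steps were tested on simulated data. Python 3.11.15, numpy 2.4.6, scipy 1.17.1, pandas 2.3.3 and matplotlib 3.10.9 were used.

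The members and gene lists were chosen with earlier results of these data known. By rule, named genes were the 7 members in classes of at least 50 cells, up to 4 genes per list, class and comparison with the largest ratio past 1 in size, and the 3 genes most like each member over profiles of at least 100 cells, among genes of at least 50 CPM in 1 profile. Egr1, Fos, Mki67, Ccr7, Il1a, Lck, Lyz2, Fcgr3 and Nkg7 fall outside it and were chosen after their values were seen.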

Additional observations from a re-analysis of the deposited data

Results flagged for a closer look

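For 5 genes and classes, the ratios with CD40 antibody lay on opposite sides of 0 with and without PD1 antibody, with both intervals clear of 0. The difference between the ratios was not tested, since each group is 1 library. In CD8 T-gated cells, the log2 ratio of Egr2 was -1.04 for CD40 against control and 0.43 for combination against PD1. At the control library's mix of subsets, Egr2 was at 7.32 CPM in the combination library and 7.65 CPM in the PD1 library. The opposite directions of Egr2 were thus not kept at that mix. Egr3 in the same cells had -0.63 and 0.58, and Nfatc1 had 0.16 and -0.10. Nr4a1 had 0.52 and -1.30 in NK-gated cells, where the PD1 library was the highest. In neutrophils Nr4a1 had -0.94 and 0.82, on 25 UMIs in the PD1 library and 53 in the control library.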

How the results depend on the processing

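No paired analysis was possible because each group is 1 library. The median log2 ratio of the 7 genes moved beyond its counting interval in the following cases, given as moved value (reported value). With equal weight for every cell, it was -0.387 (-0.50) for CD40 against control and 0.072 (0.23) for combination against PD1 in CD8 T-gated cells, 0.580 (0.05) for PD1 against control in Treg-gated cells, and -0.264 (-0.13) for CD40 against control and 0.133 (-0.25) for combination against PD1 in phagocytes. With Leiden clusters in place of gates, it was -0.165 for CD40 against control, 0.066 for combination against PD1 and -0.090 (-0.36) for PD1 against control in CD8 T cells, and 0.157 for combination against PD1 and 0.350 (0.11) for combination against CD40 in phagocytes. Without cells with a Mki67 or Top2a UMI, it was -0.073 for CD40 against control, 0.392 for combination against PD1 and 0.288 (-0.10) for combination against CD40 in CD8 T-gated cells, and -0.205 for CD40 against control and -0.048 (0.04) for PD1 against control in phagocytes. At the control library's mix of subsets, it was -0.632 for CD40 against control, -0.017 for combination against PD1 and -0.157 for PD1 against control in CD8 T-gated cells, and -0.395 for CD40 against control in phagocytes. The cause was not tested. Egr3 in neutrophils, a bound of -1.08 for PD1 against control, turned to 0.178 when at least 90% of marker UMIs were asked.

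Of 138 ratios of single members, 138 moved by less than their counting interval with at least 5 marker UMIs, 138 with doublets kept, 138 with no limit on mitochondrial UMIs, 136 without barcodes found in another library and 130 with the median of all genes set to 0. Fewer held with Leiden clusters (105), without dividing cells (110) and, of 135, with equal weight for every cell (103). The sign differed for 22, 14 and 17 ratios in turn. At the control library's mix of subsets, 16 of 28 ratios held in phagocytes and 20 of 28 in CD8 T-gated cells, and the sign differed for 7 and 2. With subset markers read in thinned cells, 157 of 193 ratios held and the sign differed for 19. With 50 in place of 10 UMIs, fewer genes were past a size of 1, namely 546 (1289), 675 (1369), 359 (995) and 224 (829) in CD8 T-gated cells for CD40 against control, combination against PD1, PD1 against control and combination against CD40. In the same order there were 702 (1585), 633 (1474), 439 (1207) and 528 (1313) in phagocytes. For CD40 against control and combination against PD1 there were 377 (856) and 356 (977) in Treg-gated cells, 799 (1626) and 582 (1313) in NK-gated cells, and 348 (1082) and 1039 (2160) in neutrophils, and for PD1 against control 65 (508) in NK-gated cells. The mixes at the control library's shares, the reading in cells thinned to 5000 UMIs and the split of neutrophils by Il1a were chosen after seeing the data. Depth limits Egr3 everywhere and all members in neutrophils, Treg and conventional CD4 T cells.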
